A study of Mus musculus with 16 samples.

Results

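The 10 genes described here, Per1, Per2, Per3, Cry1, Cry2, Nr1d1, Nr1d2, Dbp, Tef and Ciart, encode the negative limb of the circadian clock and its transcriptional outputs. They were taken by name from a table of 56748 genes, and all 10 passed the filter on low counts in every comparison. The choice of these genes was made with earlier results of these data known. RNA-Seq was performed on memory CD4+ T cells sorted from the spleen of mice, in 16 samples. Of these, 4 each came from HP1α KO mice, HP1α WT mice, HP1γ KO mice and HP1γ WT mice. In the HP1α line, a floxed Hp1a allele had been excised with a CMV-cre transgene, which acts in every tissue, and heterozygotes were then intercrossed to give WT and KO littermates. In the HP1γ line, mice of both genotypes carried the floxed Hp1g allele on both chromosomes, and those labelled KO had Cd4-cre as well, which acts in T cells. Loss of HP1γ and presence of the Cre transgene therefore cannot be told apart in that line. Both lines were kept on a mixed 129/Sv and C57BL/6 background, and littermates were sex-matched and 6 to 12 weeks old, per the study's methods.

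The circadian clock is a transcriptional feedback loop that runs in nearly every cell. The factors BMAL1 and CLOCK bind E-box elements and switch on the Per and Cry genes, whose proteins return to the nucleus and repress BMAL1 and CLOCK. The same factors drive Nr1d1 and Nr1d2, which encode the repressors REV-ERBα and REV-ERBβ, Ciart, which encodes the repressor CHRONO, and Dbp and Tef, which encode activators of D-box elements. In T cells the clock is known for rhythms in trafficking and in responses to antigen. Mice were housed in 12 hours of light and 12 hours of dark, and the time of day at which cells were collected is not given in the sources used here.

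Total estimated counts lay between 26694002 and 40199600 per sample and did not differ between the groups compared, with exact permutation p-values from 0.229 to 0.429. Cbx5, which encodes HP1α, was between 23.0 and 29.0 counts scaled to library size (CPM, after normalization for composition) in the HP1α KO samples and between 33.8 and 54.0 CPM in the HP1α WT samples. Its log2 fold change of -0.58 did not pass the test (edgeR, adjusted p = 0.946). Cbx3, which encodes HP1γ, lay between 45.9 and 50.3 CPM where HP1γ was deleted and between 73.4 and 92.5 CPM in the WT littermates, a log2 fold change of -0.82 (edgeR, adjusted p = 0.00150). These counts cover whole genes, including parts outside the floxed sequence. For the labelled cell type, CD4 T cell markers summed to between 3349 and 3830.3 CPM. B cell markers reached at most 24.5 CPM, myeloid markers 113 CPM, CD8 T cell markers 18.5 CPM and NK cell markers 57.9 CPM. Other lists were higher. Regulatory T cell markers summed to between 442 and 866 CPM, and globin genes, which mark erythroid cells, to between 16.3 and 1180 CPM. No 2 samples of a group agreed within counting noise.

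The 10 genes spanned a wide range of transcript levels, compared here in TPM, a share of transcripts that takes gene length into account. Per1 had the highest level, with a median of 505 TPM and a range from 311 to 639 TPM over the 16 samples, and its lowest sample lay above the highest sample of each of the other 9 genes. Nr1d2 followed with a median of 53.2 TPM and a range from 32.9 to 112 TPM. Ciart had a median of 41.8 TPM, and its range of 27.1 to 59.2 TPM overlapped that of Nr1d2. Tef, Nr1d1, Dbp, Cry1 and Cry2 had medians of 23.3, 23.1, 18.03, 17.3 and 13.4 TPM, and their ranges all overlapped. Within every sample Tef lay above Dbp, Cry1 and Cry2, and Nr1d1 lay above Cry2. The rest of this part of the order was not resolved. The lowest levels were those of Per2, with a median of 4.64 TPM, and Per3, with a median of 1.69 TPM and at most 219 counts per sample. No sample lacked reads of any of the 10 genes.

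The first comparison addressed whether loss of either HP1 protein altered the clock genes within a line. None of the 10 genes passed the test in the HP1α line or in the HP1γ line. In the HP1α line, 0% of the 14881 genes tested passed as well (0 genes by edgeR, 635 at an unadjusted p under 0.05, and 8 by DESeq2). In the HP1γ line, 0.327% of 14975 genes passed. The medians of the log2 fold changes over all genes tested were 0.0026 and 0.0005, respectively.

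Among the Per genes, Per1 averaged 1004 ± 177 CPM (SD, n = 4) in HP1α KO samples and 969 ± 207 CPM in HP1α WT samples. Its log2 fold change was 0.05, with a 95% confidence interval from -0.30 to 0.40. In the HP1γ line Per1 averaged 1458 ± 82.0 CPM in KO and 1352 ± 70.7 CPM in WT samples, a log2 fold change of 0.12 with an interval from -0.02 to 0.26. KO and WT samples of Per1 overlapped in both lines.

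Per2 showed the widest interval of the 10 genes in the HP1γ line. Its CPM in the HP1α line were 9.75, 9.55, 10.2 and 11.2 in the WT samples and 11.3, 9.83, 10.7 and 9.76 in the KO samples. In the HP1γ line they were 28.1, 27.3, 16.4 and 17.1 in the WT samples and 51.3, 41.4, 20.7 and 18.1 in the KO samples. The HP1α samples were tightly grouped, whereas in the HP1γ line the samples numbered 1 and 2 stood above those numbered 3 and 4 in both genotypes, and KO and WT overlapped. The log2 fold change in the HP1γ line was 0.57 with a standard error of 0.33 and an interval from -0.16 to 1.30 (edgeR, adjusted p = 0.517). It was 0.03 in the HP1α line, with an interval from -0.18 to 0.24.

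Cry2, which encodes a repressor of BMAL1 and CLOCK, had the smallest unadjusted p of the 10 genes in the HP1γ line. It averaged 47.8 ± 7.84 CPM in KO and 39.3 ± 2.86 CPM in WT samples (n = 4), a log2 fold change of 0.29 (edgeR, adjusted p = 0.380), and the groups overlapped. In the HP1α line the smallest p was that of Cry1, the other cryptochrome, at 34.3 ± 1.99 CPM in KO and 29.2 ± 4.74 CPM in WT samples. Its log2 fold change was 0.23 (edgeR, adjusted p = 0.946), also with overlapping groups. For the remaining genes, Per3, Nr1d1, Nr1d2, Dbp, Tef and Ciart, log2 fold changes ranged from -0.20 to 0.01 in the HP1α line and from -0.14 to 0.22 in the HP1γ line. The plot of differences between groups sets these intervals side by side.

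**Figure D1:**
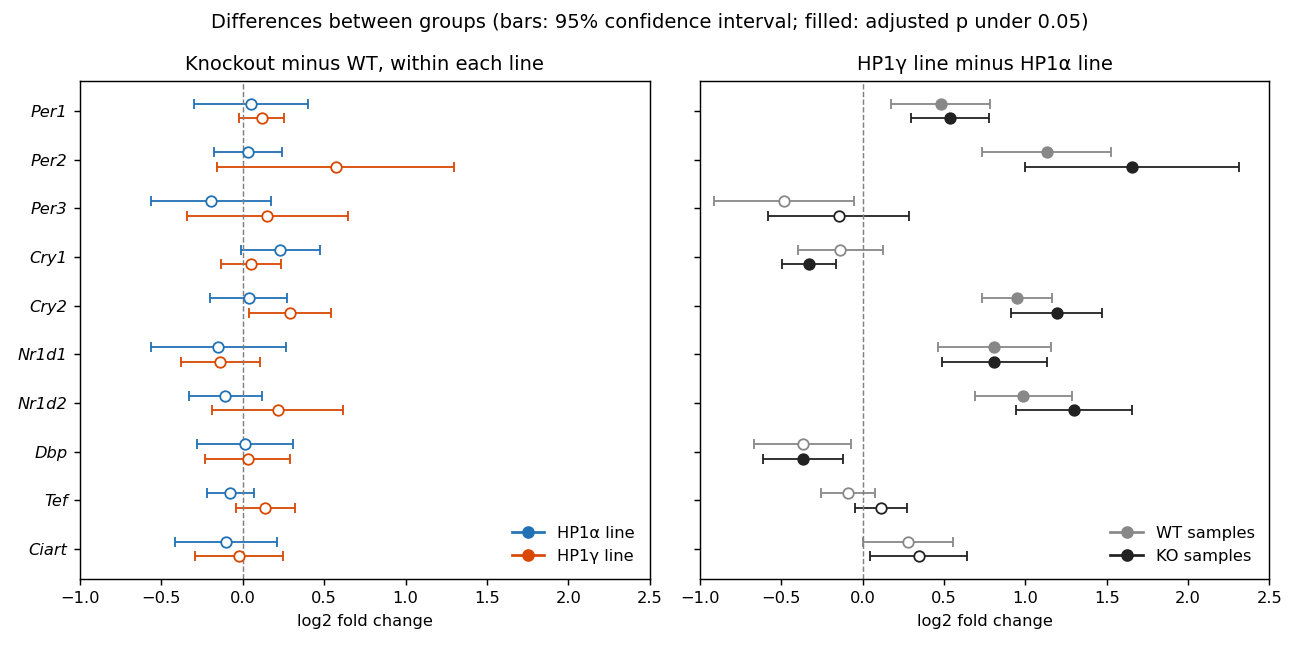
Log2 fold changes (x axis) of the 10 genes with 95% confidence intervals, KO minus WT within each line on the left and HP1γ line minus HP1α line within each genotype on the right (n = 4 samples per group). Filled points passed the test (edgeR, adjusted p under 0.05): none on the left, 5 for WT samples and 7 for KO samples on the right.

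The effect of one knockout against that of the other was tested as an interaction over all 16 samples. None of the 10 genes passed, against 0.0507% of 15776 genes tested. Per2 had the largest difference between the effects, 0.53 on the log2 scale with an interval from -0.28 to 1.33, and Tef the smallest p, with a difference of 0.20 and an interval from -0.01 to 0.42 (edgeR, adjusted p = 0.539). Differences between the knockouts within such intervals, reaching 1.33 for Per2, 0.93 for Per3 and 0.42 for Tef, were not resolved.

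The same samples allowed a comparison of the lines among WT and among KO samples, and here the clock genes differed. The KO samples of the lines lack different HP1 proteins, so that line and knockout cannot be told apart in the KO comparison. In WT samples, 5 of the 10 genes were higher in the HP1γ line than in the HP1α line (Cry2, Nr1d2, Per2, Nr1d1 and Per1) and none was lower, beside 12.8% of 14804 genes that passed in either direction (1222 higher and 674 lower). In KO samples the same 5 genes were higher in the HP1γ line, and Cry1 and Dbp were lower, beside 32.8% of 15020 genes (2522 higher and 2399 lower). The WT and KO comparisons share no sample, but their samples come from littermates of the same lines. The median log2 fold change of the 10 genes was 0.38 in WT and 0.44 in KO samples, and that of all genes tested was -0.02 and -0.01. Each line was bred apart, and the litters, days and times of collection are not given in the sources used here, so that the part of these in the line difference was not tested.

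Cry2 differed between the lines with the smallest p of the 10 genes. Its CPM were 20.4, 17.5, 23.2 and 20.3 in HP1α WT samples and 42.7, 40.3, 38.3 and 36.0 in HP1γ WT samples. In KO samples they were 20.3, 17.97, 24.1 and 21.0 in the HP1α line and 56.5, 52.0, 43.2 and 39.4 in the HP1γ line. Every HP1γ sample was above every HP1α sample in both genotypes. The log2 fold change was 0.95 in WT samples (standard error 0.10; edgeR, adjusted p = 0.00103) and 1.19 in KO samples (standard error 0.13; edgeR, adjusted p = 0.000582).

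Per2 showed the largest fold difference. All 8 HP1α samples lay between 9.55 and 11.3 CPM and all 8 HP1γ samples between 16.4 and 51.3 CPM, so that the lines did not overlap. It was 2.19-fold higher in HP1γ WT than in HP1α WT samples (log2 1.13, interval 0.74 to 1.53; edgeR, adjusted p = 0.00553) and 3.15-fold higher in HP1γ KO than in HP1α KO samples (log2 1.65, interval 0.99 to 2.31; edgeR, adjusted p = 0.00366). In both genotypes the HP1γ samples nearest to the HP1α samples were those numbered 3 and 4.

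The REV-ERB genes followed the same direction. Nr1d2 was at 78.0, 71.8, 77.5 and 86.5 CPM in HP1α WT samples and at 187, 178, 139 and 117 CPM in HP1γ WT samples. In KO samples it was at 70.2, 70.8, 87.7 and 62.6 CPM in the HP1α line and at 232, 189.8, 161 and 135 CPM in the HP1γ line. The lines were separate in both genotypes, with log2 fold changes of 0.99 in WT (edgeR, adjusted p = 0.00338) and 1.30 in KO samples (edgeR, adjusted p = 0.00102).

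Nr1d1 was at 33.2, 20.8, 23.0 and 31.0 CPM in HP1α WT samples and at 41.97, 46.9, 56.6 and 43.4 CPM in HP1γ WT samples. In KO samples it was at 26.0, 29.7, 24.4 and 17.2 CPM in the HP1α line and at 42.3, 48.8, 39.0 and 40.7 CPM in the HP1γ line. The lines were again separate, and the log2 fold change was 0.81 in both genotypes, with adjusted p-values of 0.0117 in WT and 0.00367 in KO samples (edgeR). Nr1d1 shares 52.3% of its exon bases with Thra, a thyroid hormone receptor gene on the opposite strand. The library kit keeps the strand of the transcript, and whether counting used it is not given in the sources used here. Thra itself had log2 fold changes of -0.22 in WT and -0.13 in KO samples and did not pass the test (edgeR, adjusted p = 0.159 and 0.271).

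Per1 was between 706 and 1264 CPM in the 8 HP1α samples and between 1289.9 and 1561 CPM in the 8 HP1γ samples, so that the highest HP1α sample, KO replicate 3, was close to the lowest HP1γ sample, WT replicate 3. The log2 fold change was 0.54 in KO samples (edgeR, adjusted p = 0.00532) and 0.48 in WT samples (edgeR, adjusted p = 0.0463). The WT difference was near the threshold: it was lost when any single sample was left out other than HP1α WT replicate 3, with adjusted p-values up to 0.129, and with a block by replicate number (edgeR, adjusted p = 0.0650).

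Cry1 and Dbp lay in the opposite direction. Cry1 was at 36.7, 32.2, 33.3 and 35.0 CPM in HP1α KO samples and at 26.1, 26.6, 30.4 and 26.3 CPM in HP1γ KO samples, without overlap, and its log2 fold change was -0.33 (edgeR, adjusted p = 0.00928). In WT samples the change was -0.14 and did not pass (edgeR, adjusted p = 0.478). On log2(TPM + 1) with limma the KO difference was -0.18 and did not pass either (adjusted p = 0.294).

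Dbp, which encodes an activator of D-box genes and is itself among the most rhythmic transcripts of many tissues, was at 20.4, 20.4, 16.2 and 18.5 CPM in HP1α KO and at 12.8, 13.4, 16.01 and 16.5 CPM in HP1γ KO samples. These ranges overlapped slightly, and the log2 fold change was -0.37 (edgeR, adjusted p = 0.0301). The change in WT samples was also -0.37 and did not pass (edgeR, adjusted p = 0.0969). The KO call was lost without HP1α KO replicate 1, 2 or 4 or without HP1γ KO replicate 1 or 2, with adjusted p-values up to 0.0861. It was also lost with limma on log2(TPM + 1) (-0.30, adjusted p = 0.0970) and with a block by replicate number (edgeR, adjusted p = 0.0734). Sphk2, which overlaps 15.5% of the exon bases of Dbp on the opposite strand, was lower in the HP1γ line as well, by a log2 fold change of -0.42 in KO samples (edgeR, adjusted p = 0.00967).

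Tef, Per3 and Ciart did not pass in either genotype with edgeR. Tef, a second D-box activator, was between 41.5 and 54.5 CPM in all 16 samples, with log2 fold changes of -0.09 and 0.11. Per3 had changes of -0.48 in WT and -0.15 in KO samples, both with overlapping groups. Ciart had changes of 0.28 and 0.34 with overlapping groups (edgeR, adjusted p = 0.166 and 0.0713). Its KO difference passed with DESeq2 (0.35, adjusted p = 0.0393), with limma on log2(TPM + 1) (0.48, adjusted p = 0.0373) and with edgeR without HP1α KO replicate 1 (0.46, adjusted p = 0.0300). The values of all samples are drawn in the plot of levels.

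**Figure D2:**
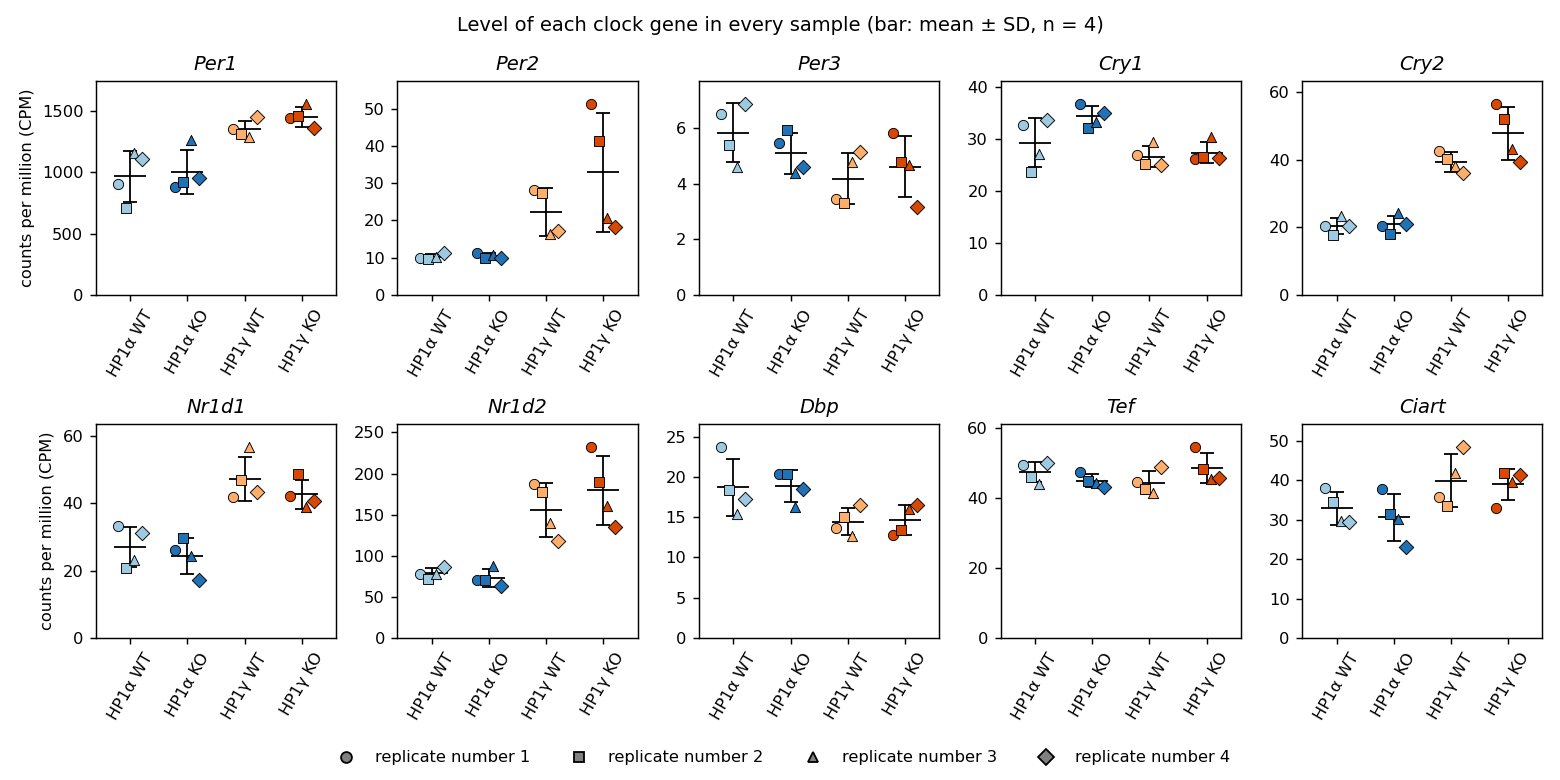
Level of each gene in CPM (y axis, from 0) in the 16 samples, by group, with marker shapes for the replicate number in the labels and black bars for the mean ± SD (n = 4). Per1, Per2, Cry2, Nr1d1 and Nr1d2 sit higher in every HP1γ sample than in every HP1α sample, and KO and WT of a line overlap for every gene.

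The variation of each gene over the 16 samples was divided between line, genotype, their interaction, the replicate number within a line and a remainder. Line took 89.7% of the variation of Cry2, 84.9% of that of Nr1d2, 75.0% of that of Nr1d1, 71.9% of that of Per2 and 66.7% of that of Per1. Line took 0.159% of the variation of Tef, and the median over 15776 genes was 23.1%. Genotype took at most 13.9%, for Cry1, and at most 2.67% for each of the other 9 genes, beside a median of 3.01% over all genes. Replicate number within line took the largest part for Ciart, at 45.9%, and for Cry1 and Tef at 36.4% and 36.5%, beside a median of 32.3%. Replicate number within line has more levels than line or genotype, which by itself gives it a larger share. Its share is therefore to be read beside its own median and not against the other parts. These shares are a description and were not tested.

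**Figure D3:**
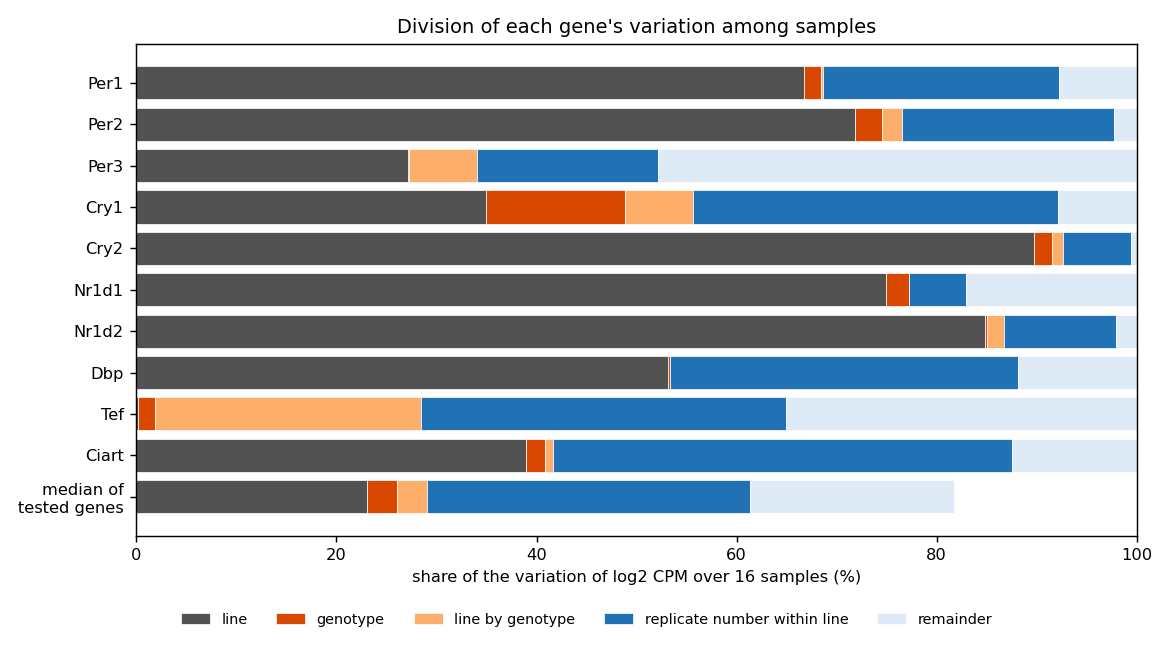
Share of the variation of log2 CPM over 16 samples (x axis, %) that goes with line, genotype, line by genotype, replicate number within line and the remainder, for each of the 10 genes and as medians over 15776 genes (medians of the parts do not add to 100%). Line takes the largest share in Cry2, Nr1d2, Nr1d1, Per2, Per1 and Dbp.

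Other genes of the clock were examined from lists chosen by function, with earlier results of these data known. The counts and sums of these lists are therefore a description and no independent test. Of the positive limb, Arntl (BMAL1) averaged 62.4 ± 4.40 CPM in HP1α WT and 72.3 ± 3.64 CPM in HP1γ WT samples (n = 4), a log2 fold change of 0.22 that did not pass (edgeR, adjusted p = 0.0735), and 0.11 in KO samples. Clock was higher in the HP1γ line in KO samples (0.34; edgeR, adjusted p = 0.00613) and Npas2, which can replace CLOCK, in WT samples (0.69; edgeR, adjusted p = 0.0154). Of the 3 tested genes of that list, 1 thus passed in each genotype, beside the 12.8% and 32.8% of all genes given above, a share near that over all genes in KO samples.

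Regulators that share binding sites with the 10 genes also differed. Nfil3, Rora and Hlf, which act at REV-ERB response elements or D-boxes, were higher in the HP1γ line in each genotype. Nfil3, a D-box repressor, was 0.93 higher on the log2 scale in WT and 0.84 in KO samples. Rora, an activator at the sites that REV-ERB proteins repress, was 0.92 and 1.11 higher. Hlf, a D-box activator related to Dbp and Tef, was 0.83 and 1.61 higher, from 5.99 ± 1.44 CPM in HP1α WT to 10.6 ± 1.48 CPM in HP1γ WT samples (n = 4). Their largest adjusted p was 0.0183 (edgeR). Of the 4 tested genes of this list, 3 thus passed in each genotype, beside 12.8% (WT) and 32.8% (KO) of all genes. The other tested gene did not pass in either genotype, and its change in KO samples was not positive. Rorb was too low to be tested.

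Both genes of the DEC family, which encode repressors at E-boxes, were higher in the HP1γ line. Bhlhe40 was between 798 and 1045 CPM in the HP1α samples and between 1529 and 2025 CPM in the HP1γ samples, a log2 difference of 1.01 in either genotype (edgeR, adjusted p = 0.00103 in WT and 9.23e-05 in KO samples). Bhlhe41 was low, at 0.964 ± 0.351 CPM in HP1α WT and 3.64 ± 1.73 CPM in HP1γ WT samples (n = 4), and differed by 1.92 in WT and 1.19 in KO samples. Of 9 kinase and ubiquitin ligase genes that act on clock proteins, 2 were higher in the HP1γ line in WT and 4 in KO samples, and none was lower. Among them, Gsk3b and Fbxw11 were higher in both genotypes and Csnk1e in KO samples. Of 10 tested rhythmic output genes outside the 10 described, the same 5 were higher in both genotypes: Nampt, Leo1, Wee1, Slc16a1 and Lonrf3. The counts of these lists are to be read beside the 12.8% (WT) and 32.8% (KO) of all genes that passed. Those of the kinase and ligase genes were near these shares. Nampt, which encodes the rate-limiting enzyme of NAD+ salvage, was 0.86 higher in WT and 1.05 higher in KO samples. None of the genes on these lists passed in KO against WT within either line.

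Genes known to respond to hormones or to cell handling differed in both directions, and their counts are to be read beside the 12.8% (WT) and 32.8% (KO) of all genes that passed. Of 9 glucocorticoid receptor targets, 4 were higher and 1 lower in the HP1γ line in WT samples, and 3 were higher and 2 lower in KO samples. Klf9 and Sgk1 were higher in both, whereas Fkbp5 was lower in both (-0.37 in WT and -0.53 in KO samples). The sum of the list was at 1512 to 1630.2 CPM in HP1α WT and 1698 to 2199 CPM in HP1γ WT samples, without overlap, and the KO groups overlapped. Of 17 immediate early genes, 4 were higher in WT samples (Atf3, Fosl2, Nr4a2 and Nr4a3). In KO samples the same 4 were higher, and Jun, Fos, Zfp36 and Ier2 were lower. Of 8 heat shock genes, Hspa1a and Hspa1b were lower in WT samples (-2.28 and -2.48) and Hsp90aa1 was higher in KO samples. The sums of the immediate early genes and of the heat shock genes overlapped between the lines in both genotypes.

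Among markers of other cells, no B cell, myeloid, CD8, NK or regulatory T cell marker passed between the lines. All 4 globin genes were higher in HP1γ KO than in HP1α KO samples, with a median log2 fold change of 2.84 and sums from 80.9 to 1179.9 CPM against 35.2 to 185 CPM, which overlapped. Between the WT groups, at 45.1 to 519 CPM in the HP1γ line and 16.3 to 537 CPM in the HP1α line, none passed. Of 5 naive T cell markers, S1pr1 was higher in the HP1γ line in both genotypes (0.74 and 0.58), and the other 4 did not pass. The sum of these markers was at 2121 to 2366 CPM in HP1α WT samples, below all HP1γ WT samples at 2485 to 2837 CPM and all HP1α KO samples at 2436 to 2574 CPM. HP1γ KO samples, at 2534 to 2889.8 CPM, overlapped with both of the latter groups. Of the CD4 T cell markers, Cd44 was higher in the HP1γ line in both genotypes (0.35 and 0.32), and Cd3d was lower in KO samples (-0.27). The part of these changes in the line difference of the clock genes was not tested.

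Within the HP1γ line, Nr1d2 and Per2 were examined by replicate number, a number in the labels that KO and WT samples share. Samples numbered 1 and 2 were at 178 to 232 CPM of Nr1d2 and those numbered 3 and 4 at 117 to 161 CPM, without overlap. For Per2 the same samples were at 27.3 to 51.3 CPM and at 16.4 to 20.7 CPM. This division of the numbers was chosen after the values were seen and was not itself tested. In a test of replicate number with genotype in the model, 1 of the 10 genes passed, Nr1d2 (edgeR, adjusted p = 0.0411), beside 0.661% of 14975 genes. Per2 missed the threshold (edgeR, adjusted p = 0.0549). The call of Nr1d2 was lost when any 1 of the 8 samples was left out, with adjusted p-values from 0.0752 to 0.178, and with limma on log2(TPM + 1) (0.182).

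Cry2 showed an ordering of the samples like that of Nr1d2 in this line, at 40.3 to 56.5 CPM in the samples numbered 1 and 2 and at 36.0 to 43.2 CPM in those numbered 3 and 4, but these ranges overlapped and the gene did not pass (edgeR, adjusted p = 0.184). None of the 10 genes passed in the HP1α line, beside 1.26% of 14881 genes. The smallest p-values there were those of Ciart and Per1 (edgeR, adjusted p = 0.132 and 0.150). Over both lines together none of the 10 genes passed, beside 0% of 15776 genes (0 genes by edgeR, 1159 at an unadjusted p under 0.05, and 108 by DESeq2). What the numbers stand for is not given in the sources used here.

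**Figure D4:**
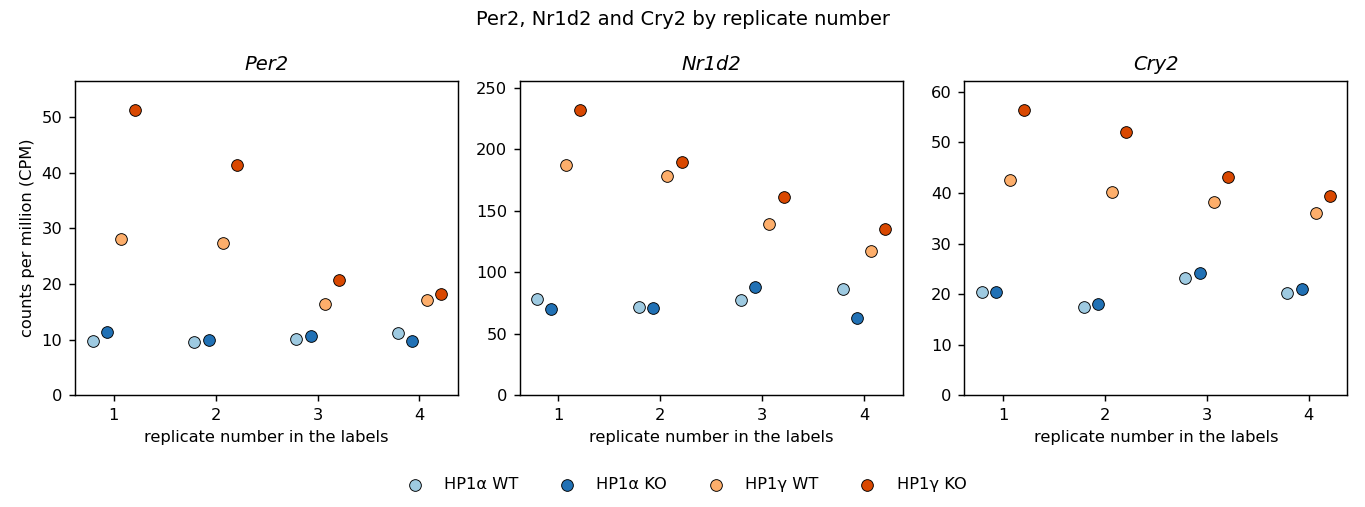
Per2, Nr1d2 and Cry2 in CPM (y axis, from 0) by the replicate number in the labels (x axis), with 1 point per sample and colours for the 4 groups. In the HP1γ line the samples numbered 1 and 2 lie above those numbered 3 and 4 for Per2 and Nr1d2, and the HP1α samples show no such division.

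Covariation between the genes was examined on log2 CPM centred on group means, so that line and genotype did not enter. Over 45 pairs and 16 samples, 2 pairs passed a permutation test within groups. Per2 and Nr1d2 had r = 0.854 and rho = 0.894 (permutation p = 0.00158 for r and 0.00078 for rho, adjusted p = 0.0497 and 0.0351), and r was 0.749 without the 2 samples farthest from the median of Per2. Cry2 and Nr1d2 had r = 0.767 and rho = 0.759 (permutation p = 0.00221 and 0.00474, adjusted p = 0.0497 and 0.107), and r was 0.629 without 2 samples. No pair passed after the adjustment when 2 samples were left out of each pair. Over the means of same-numbered KO and WT samples, r was 0.929 and 0.863 for these pairs (exact permutation p = 0.0191 and 0.00347, not adjusted).

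Per2 and Cry2 had r = 0.741 and did not pass (permutation test, adjusted p = 0.0713). These 3 relations were steep in the HP1γ line, where r was 0.920, 0.924 and 0.962 for Per2 with Nr1d2, Cry2 with Nr1d2 and Per2 with Cry2 over 8 samples. In the HP1α line r was 0.589, 0.525 and 0.375, and the difference between the lines was not tested. Dbp lay on the other side, with r = -0.652 to Cry2 and -0.504 to Nr1d2, neither of which passed (permutation test, adjusted p = 0.179 and 0.271). On log2(TPM + 1), Dbp with Cry2 passed (r = -0.606, rho = -0.791; permutation test, adjusted p = 0.0191 for r and 0.0167 for rho) and Cry2 with Nr1d2 did not (r = 0.669; adjusted p = 0.203). Of the 45 correlations 34 were positive, with a median of 0.153.

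**Figure D5:**
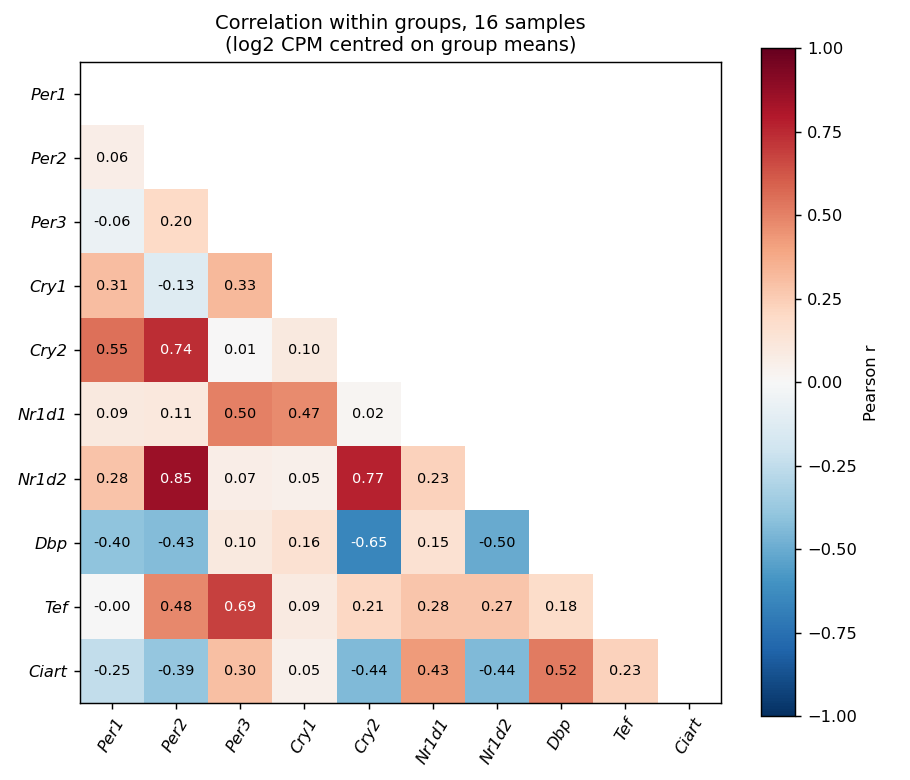
Pearson correlation (colour and number) of log2 CPM centred on group means over 16 samples, for the 45 pairs of genes. Per2, Cry2 and Nr1d2 form the block of highest values (0.741 to 0.854), and Dbp is negative with Cry2, Nr1d2, Per2 and Per1.

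None of 40 correlations of the 10 genes with Arntl, Clock, Npas2 or Nfil3 passed. Those of lowest p were Ciart and Dbp with Arntl (r = 0.710 and 0.630; permutation test, adjusted p = 0.260 and 0.454). Of 170 correlations with summed lists and total counts, 2 passed by r, those of Cry2 with the other rhythmic output genes (r = 0.881, rho = 0.844, r = 0.836 without 2 samples; permutation test, adjusted p = 0.0349 for r and 0.0251 for rho) and with the regulators at REV-ERB and D-box sites (r = 0.732, rho = 0.771, r = 0.637 without 2 samples; permutation test, adjusted p = 0.0349 for r and 0.0247 for rho). By rho 3 more passed, and by r they did not. Per2 and Nr1d2 were positive with the heat shock genes (rho = 0.750 and 0.774, permutation test, adjusted p = 0.0247 and 0.0398; r = 0.594 and 0.708, adjusted p = 0.0544 and 0.0893). Dbp was negative with the other rhythmic output genes (rho = -0.832, permutation test, adjusted p = 0.0251; r = -0.765, adjusted p = 0.0683). Among all 12532 genes with at least 1 CPM on average, Per2 ranked at 194 and Cry2 at 548 in likeness to Nr1d2. The genes most like Per1 were Sf1, Irf2bp2, Clk3, Tgif2 and Zc3h12a (r = 0.961 to 0.935), and no other gene of the 10 was near them, Cry2 ranking highest at 1127. Those most like Dbp were Phpt1, Trpm6, Thap11, Ankrd40 and Psmb8 (r = 0.886 to 0.848), and Ciart ranked highest of the 10 at 1342 (r = 0.516).

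Promoter sequence was examined for the elements through which the loop acts, in RefSeq entries of 250 bases before to 50 after the start (GRCm38.p6). Entries matched 9 of the 10 genes, with 11 entries in all, and Per2 had none. The letters CACGTG of the E-box were found upstream of Ciart, Cry1, Per1 and Tef, in 7.15% of 32851 promoters overall. The variant CACGTT was found in Cry1, Cry2 and Nr1d1 (4.68% of all promoters), and the D-box letters TTATGTAA or TTATGCAA in Per1 and Per3 (1.66%). The REV-ERB element core (TAGGTCA or TGGGTCA; 6.45%) and the cAMP element TGACGTCA (1.79%) were found in none of the 9 genes. Both strands were searched, and CACGTT and CACGTG share letters but were counted apart. The upstream sequence of 4 genes that were higher in the HP1γ line, and of Ciart, which did not pass, is given 5′ to 3′ on the gene's strand, with matches in capitals.

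Cry2, chr2:92434070-92434319 (- strand): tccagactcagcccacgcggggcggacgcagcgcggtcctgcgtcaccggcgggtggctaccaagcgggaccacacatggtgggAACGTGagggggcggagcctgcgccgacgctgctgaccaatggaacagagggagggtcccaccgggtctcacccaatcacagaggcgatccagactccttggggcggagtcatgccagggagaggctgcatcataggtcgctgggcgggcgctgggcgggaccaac
Nr1d1, chr11:98775378-98775627 (- strand): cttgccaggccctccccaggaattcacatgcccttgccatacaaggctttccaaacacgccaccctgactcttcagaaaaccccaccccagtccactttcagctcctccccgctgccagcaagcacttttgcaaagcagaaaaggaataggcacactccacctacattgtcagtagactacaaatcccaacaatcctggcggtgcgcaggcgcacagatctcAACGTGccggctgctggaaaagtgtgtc
Nr1d2, chr14:18239107-18239356 (- strand): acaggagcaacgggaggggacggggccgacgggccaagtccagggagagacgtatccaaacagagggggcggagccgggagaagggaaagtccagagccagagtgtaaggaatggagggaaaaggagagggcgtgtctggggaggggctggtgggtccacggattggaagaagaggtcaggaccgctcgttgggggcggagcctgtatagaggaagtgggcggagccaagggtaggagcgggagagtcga
Per1, chr11:69098699-69098948 (+ strand): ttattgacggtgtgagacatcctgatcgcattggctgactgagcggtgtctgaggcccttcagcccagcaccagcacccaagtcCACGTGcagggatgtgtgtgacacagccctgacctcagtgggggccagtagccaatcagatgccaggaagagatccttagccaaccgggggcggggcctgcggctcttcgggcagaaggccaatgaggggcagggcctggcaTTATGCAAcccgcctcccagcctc
Ciart, chr3:95882229-95882478 (- strand): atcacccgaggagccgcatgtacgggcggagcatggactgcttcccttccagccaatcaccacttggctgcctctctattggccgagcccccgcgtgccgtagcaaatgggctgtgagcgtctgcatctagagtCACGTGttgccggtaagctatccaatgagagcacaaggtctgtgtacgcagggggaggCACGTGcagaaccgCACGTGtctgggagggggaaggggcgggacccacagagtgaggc

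Cry2 and Nr1d1 each held a single CACGTT, read here as AACGTG on the gene's strand, 166 and 28 bases before the start. Nr1d2 held no match to any of the elements in this window. Per1 held CACGTG at 166 bases and TTATGCAA at 24 bases before the start of its first entry, and neither in its second. Ciart held CACGTG at 116, 58 and 44 bases before the start, the most of the 9 genes searched, and Tef held 1 in each of its entries. These matches are a description of the windows and were not tested.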

How the data were processed

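RNA-Seq of sorted splenic memory CD4+ T cells was analysed in 16 samples, 4 per group, grouped by line, genotype and replicate number from the submitters' titles. A treatment label on transferred cells does not match the memory cell experiment in the study's methods and was not used. Labels do not say that the samples are separate animals, so p-values measure the spread between these samples. The authors trimmed reads, aligned them with STAR to GRCm39 and quantified them with Salmon, and deposited estimated counts per gene (11.6% of the values are not whole) without normalization. A deposited table of TPM holds the same genes, with equal sums in all samples and no record of depth. The strand setting and the version of each tool are not given in the labels.

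Estimated counts were rounded and tested with edgeR 4.0.16 in R 4.3.3 (TMM, filterByExpr with a minimum count of 10, glmQLFit and glmQLFTest, Benjamini-Hochberg over all genes tested, threshold 0.05). Each comparison used the 8 samples of its groups, and the interaction and the number over both lines used all 16. Confidence intervals are 95% intervals of the fit. CPM are TMM-normalized over 16 samples, and correlations used log2 CPM with a prior count of 2, centred on group means, with 100000 permutations within groups (two-sided) and Benjamini-Hochberg adjustment within each family. Single values were compared by exact two-sided permutation of 4 against 4 samples, whose smallest p is 0.0286. Alternatives were DESeq2 1.42.0, RLE size factors, no filter, a robust fit, limma 3.58.1 on log2(TPM + 1), a single fit of all 16 samples, a block by replicate number, and each sample left out. The scripts were tested on simulated data.

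The 10 genes and the gene lists were chosen with earlier results of these data known. Genes named are the 10, the clock genes Arntl, Clock, Npas2, Nfil3, Rora, Hlf, Bhlhe40 and Bhlhe41, Cbx5 and Cbx3, up to 5 called genes of each other list with the smallest p, and the 5 genes most like Per1 and the 5 most like Dbp. Thra, Sphk2, and further genes of lists named beyond 5, were added after their values were seen. Some genes of the lists are not reported here. One listed rhythmic gene is an older name of Ciart and was left out. Gene overlaps are those of GENCODE on GRCm39, and promoters those of RefSeq on GRCm38.p6, which was used for no other coordinates.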

Additional observations from a re-analysis of the deposited data

Results flagged for a closer look

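Of 40 groups of 4 samples (10 genes in 4 groups), 1 held a sample far from the other 3. Cry1 was at 30.4 CPM in HP1γ KO replicate 3, against 26.1 to 26.6 CPM in the other 3 samples of the group. A sample this far is found by chance in about 1 of 20 groups. In the HP1γ WT group replicate 3 was also the highest for Cry1, at 29.3 CPM against 24.9 to 26.8 CPM. Cry1 did not pass the test of replicate number in that line (edgeR, adjusted p = 0.361).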

How the results depend on the processing

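No gene passed in KO against WT in either line, or in the interaction, under any setting. Between the lines Cry2, Nr1d2, Per2 and Nr1d1 passed in both genotypes under every setting. Between KO groups DESeq2 gave 8 calls, with Ciart added, and limma on log2(TPM + 1) 6, with Ciart added and Cry1 and Dbp lost. There were 4 to 5 calls in WT and 6 to 7 in KO samples when 1 sample was left out. Of the replicate numbers, calls in the HP1α line went from 0 to 2 (Ciart and Per1) with DESeq2 and without a filter. In the HP1γ line they went from 1 to 2 (Nr1d2 and Per2) with DESeq2, without a filter and with a robust fit, and to 0 with limma on log2(TPM + 1) and with any sample left out (0 to 0). Of the correlations, 16 passed on values that were not centred, and 0 passed over the means of same-numbered samples, within the HP1α line, within the HP1γ line, or with 2 samples left out. Over the means and within a line, few permutations are possible. A single pair could not pass the adjustment over 45 pairs there, however high its r, so that these counts of 0 decide nothing. On log2(TPM + 1) 2 passed, of which 1 was shared (Per2 with Nr1d2). The causes were not tested.

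Calls over all genes moved more. In HP1α KO against WT they went from 0 to 8 with DESeq2 and to 1 without a filter, with a robust fit or with limma. In HP1γ KO against WT they went from 49 to 265 with DESeq2, 96 in a fit of 16 samples and 28 with limma. Between WT groups they went from 1896 to 1175 with limma and 577 with the replicate block. In the interaction they went from 8 to 78 with DESeq2, 14 without a filter and 13 with the block. For replicate number they went from 188 (HP1α line) and 99 (HP1γ line) to 770 and 1255 with DESeq2, 929 and 1118 without a filter, 328 and 399 with a robust fit, and 2 and 4 with limma. Over both lines they went from 0 to 108 with DESeq2 and 6 without a filter.

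The numbers were not taken to pair the samples: over 15776 genes same-numbered KO and WT samples correlated in their deviations with 0.108, 0.215, 0.228 and 0.0940 in the HP1α line and with 0.109, 0.153, 0.00286 and 0.0792 in the HP1γ line, so that not every value was over 0.1. Among the 4 samples of the other genotype, the best match was the own number for 6 of 8 samples in the HP1α line. In the HP1γ line it was so for 2 of 8 samples. Both lines were treated alike, although they differed in this. The choice not to pair rests on the values over all genes. Over the clock genes described here alone, same-numbered KO and WT samples correlated with 0.62, 0.13, 0.89 and 0.04 in the HP1α line. In the HP1γ line these values were 0.68, 0.49, 0.53 and 0.51, each above its value over all genes. Pairing by number for these genes was not tested. Between the lines, same-numbered WT samples correlated over all genes with -0.080, -0.204, -0.0654 and -0.125. KO samples did so with -0.0665, -0.0469, -0.108 and 0.0715. A number is not known to mark anything that the lines share, so the block between lines is of limited meaning. With the replicate block, calls went from 5 to 4 in WT (Per1; edgeR, adjusted p = 0.0650) and from 7 to 6 in KO samples (Dbp; edgeR, adjusted p = 0.0734). Calls stayed at 0 in KO against WT, where Cry2 and Per2 in the HP1γ line had adjusted p = 0.149 and 0.159 (edgeR).

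Small differences that did not pass changed sign. With limma on log2(TPM + 1) Nr1d2 in HP1α KO against WT was 0.022, Ciart in HP1γ KO against WT 0.033 and Per3 between KO groups 0.0025. In the interaction, Dbp was -0.0063 and Nr1d1 -0.013 without a filter, and Dbp -0.0061 with the replicate block. With 1 sample left out, ranges in HP1α KO against WT were -0.081 to 0.15 for Per1, -0.010 to 0.082 for Per2, -0.042 to 0.10 for Cry2, -0.067 to 0.15 for Dbp and -0.22 to 0.011 for Ciart. In HP1γ KO against WT they were -0.0017 to 0.11 for Cry1, -0.033 to 0.089 for Dbp and -0.10 to 0.073 for Ciart. In the interaction they were -0.042 to 0.19 for Per1, -0.13 to 0.086 for Dbp, -0.14 to 0.11 for Nr1d1 and -0.046 to 0.19 for Ciart. Depth limits Per3 most, with at most 219 counts per sample.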

Other observations

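In 1 sample the deposited counts and TPM of Per2 disagreed. HP1α KO replicate 3 held 363 counts (10.7 CPM), within the range of the other HP1α samples, but 5.52 TPM against 2.60 to 3.06 TPM in the other 7. The ratio of counts to TPM, which stands for the transcript length that the quantification assigned, was 0.502 of its median over samples there and between 0.984 and 1.01 in the other 15 samples. Values under 0.6 were found in 0.958% of all gene and sample values. The comparisons of Per2 by counts did not use this length.

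The ratio of Dbp to Arntl TPM, opposite arms of the loop, was lower in the HP1γ line. The log2 ratio was between -1.25 and -0.81 in the 8 HP1α samples and between -1.80 and -1.32 in the 8 HP1γ samples, without overlap. KO and WT samples overlapped within each line. The log2 ratio of Per2 to Arntl TPM lay the other way, between -4.15 and -2.67 in the HP1α samples and between -3.47 and -1.51 in the HP1γ samples, with overlap, and its highest HP1α value was that of KO replicate 3, the sample with the divergent Per2 TPM. These ratios were chosen after the values of the genes were seen and were not tested.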
